A study of Homo sapiens with 12 samples.

Results

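Chromatin accessibility was examined around CDKN2A on the short arm of chromosome 9, a region that HT1080 cells are known to have lost in part. The members were 10 genes listed by name at 9p21-p22 (MLLT3, FOCAD, KLHL9, IFNE, MTAP, CDKN2A, CDKN2B, CDKN2B-AS1, DMRTA1 and ELAVL2), out of 59679 genes of the RefSeq table on assembled chromosomes. With them went every accessible site whose summit, the position of highest signal, lay on chromosome 9 from 20000000 to 25000000 (GRCh38), which gave 93 of the 188019 summits in the deposited peak list. The choice used names and positions only, but was made with earlier results of these data known. The sites came from ATAC-seq, which reads out where a transposase can cut DNA and thus where chromatin is open, of HT1080, an established human fibrosarcoma line. Cells had migrated for 48 h in rat tail type-I collagen at 0.3 mg/mL (low), 1.0 mg/mL (medium) or 1.7 mg/mL (high), with 4 libraries per concentration and 12 in all. All 3 groups received the matrix metalloproteinase inhibitor GM6001 at 20 µM, and all were this 1 line. The list names no library and no concentration, so nothing below compares the 3 groups, no value has a replicate, the depth per library is unknown and no test was made.

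CDKN2A encodes a pair of unrelated tumour suppressors from separate first exons: p16INK4a, which inhibits the kinases CDK4 and CDK6 and so keeps RB active, and ARF, which holds back the ubiquitin ligase MDM2. CDKN2B next to it encodes p15INK4b, a related inhibitor of the same kinases, and CDKN2B-AS1 (ANRIL) is a long noncoding RNA that starts close to the ARF exon and runs across CDKN2B. Loss of this segment is common in human tumours and often takes along MTAP, the enzyme that recycles methylthioadenosine into methionine. The other listed genes mark the surroundings: MLLT3, a chromatin reader of the super elongation complex, FOCAD, KLHL9, an adaptor of a CUL3 ubiquitin ligase, IFNE and the type I interferon cluster, DMRTA1, a DM-domain protein, and ELAVL2, a neuronal RNA-binding protein.

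The stretches of DNA before 6 start sites are examples of promoters that were, or were not, found open. The 250 bases upstream of each start are given 5′ to 3′ on the strand of the gene, from RefSeq on GRCh38.p14, with every CpG in capitals, because CpG-dense promoters are open in most cells. MTAP and DMRTA1 had a summit at the start, the others did not.
MTAP, chr9:21802386-21802635, plus strand: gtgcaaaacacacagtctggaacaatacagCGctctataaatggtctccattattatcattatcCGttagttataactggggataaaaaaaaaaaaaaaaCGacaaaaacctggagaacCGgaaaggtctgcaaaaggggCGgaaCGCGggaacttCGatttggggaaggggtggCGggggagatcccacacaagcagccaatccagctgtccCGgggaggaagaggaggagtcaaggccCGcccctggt
CDKN2A start of p16INK4a transcripts, chr9:21974858-21975107, minus strand: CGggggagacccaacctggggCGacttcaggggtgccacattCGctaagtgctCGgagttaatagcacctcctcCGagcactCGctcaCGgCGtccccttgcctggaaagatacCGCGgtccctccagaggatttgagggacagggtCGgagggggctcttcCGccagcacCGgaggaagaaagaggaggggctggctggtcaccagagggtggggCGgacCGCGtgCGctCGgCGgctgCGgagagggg
CDKN2A start of ARF transcripts, chr9:21995325-21995574, minus strand: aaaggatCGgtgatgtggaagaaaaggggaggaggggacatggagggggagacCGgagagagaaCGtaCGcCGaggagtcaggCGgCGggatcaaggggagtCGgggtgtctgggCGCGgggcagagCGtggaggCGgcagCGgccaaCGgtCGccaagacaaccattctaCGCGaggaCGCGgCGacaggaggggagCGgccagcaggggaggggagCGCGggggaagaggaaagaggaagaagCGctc
CDKN2B, chr9:22009306-22009555, minus strand: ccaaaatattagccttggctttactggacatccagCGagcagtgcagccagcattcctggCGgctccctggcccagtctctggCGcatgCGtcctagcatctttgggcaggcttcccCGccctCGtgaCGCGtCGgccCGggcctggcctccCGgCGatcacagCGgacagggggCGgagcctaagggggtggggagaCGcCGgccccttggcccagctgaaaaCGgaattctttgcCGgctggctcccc
DMRTA1, chr9:22446574-22446823, plus strand: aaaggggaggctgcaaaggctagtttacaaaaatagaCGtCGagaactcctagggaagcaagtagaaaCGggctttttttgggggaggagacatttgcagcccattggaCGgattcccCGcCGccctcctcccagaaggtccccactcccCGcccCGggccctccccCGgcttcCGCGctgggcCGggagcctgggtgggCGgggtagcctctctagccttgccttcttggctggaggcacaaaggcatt
IFNE, chr9:21482314-21482563, minus strand: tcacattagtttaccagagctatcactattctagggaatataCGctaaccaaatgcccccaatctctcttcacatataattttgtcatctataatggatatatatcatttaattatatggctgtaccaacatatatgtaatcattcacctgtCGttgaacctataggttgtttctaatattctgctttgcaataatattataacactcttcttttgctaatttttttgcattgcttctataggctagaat
The p16INK4a sequence held 20 CpG, the ARF sequence 24 and the CDKN2B sequence 18, against 11 for MTAP, 13 for DMRTA1 and 2 for IFNE. The median over all 34943 promoters of the table, noncoding genes included, was 11. Of coding starts alone, 58.5% had fewer CpG than the p16INK4a start, 69.8% than the ARF start and 53% than the CDKN2B start. The CDKN2A and CDKN2B promoters, with no summit, were thus richer in CpG than the open ones of MTAP and DMRTA1. This does not hold for all open starts of listed genes: FOCAD had 35 CpG, MLLT3 24 and KLHL9 16. The hexamer GGGCGG, searched on both strands, occurred 2 times before MTAP, 1 time before the p16INK4a start, 2 times before CDKN2B and 3 times before DMRTA1, and was not found before the ARF start or IFNE. It occurred in 42.5% of all promoters. TATAAA, also on both strands, occurred 1 time before MTAP and in none of the other 5, against 10.8% of all promoters. These are matches of letters, which may overlap a CpG.

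No summit lay between 21812632 and 22084850, a stretch of 272 kb that held CDKN2A (21967752 to 21995324) and CDKN2B (22002903 to 22009313) whole. It also took in 128 kb of MTAP, or 92.8% of that gene (21802636 to 21941115), and 90.1 kb of CDKN2B-AS1 (21994791 to 22128142), or 67.5%, with the start of the noncoding RNA. The antisense gene CDKN2A-AS1 lay inside it too. From the p16INK4a start the nearest summits were 162 kb away on the MTAP side and 110 kb away on the DMRTA1 side. The ARF start was 183 kb and 89.5 kb from them, and the CDKN2B start 197 kb and 75.5 kb. The list gives no signal between peaks, and no summit in it had fewer than 35 overlapping fragments. Lost DNA and DNA that is present but closed therefore cannot be told apart inside the stretch.

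**Figure D1:**
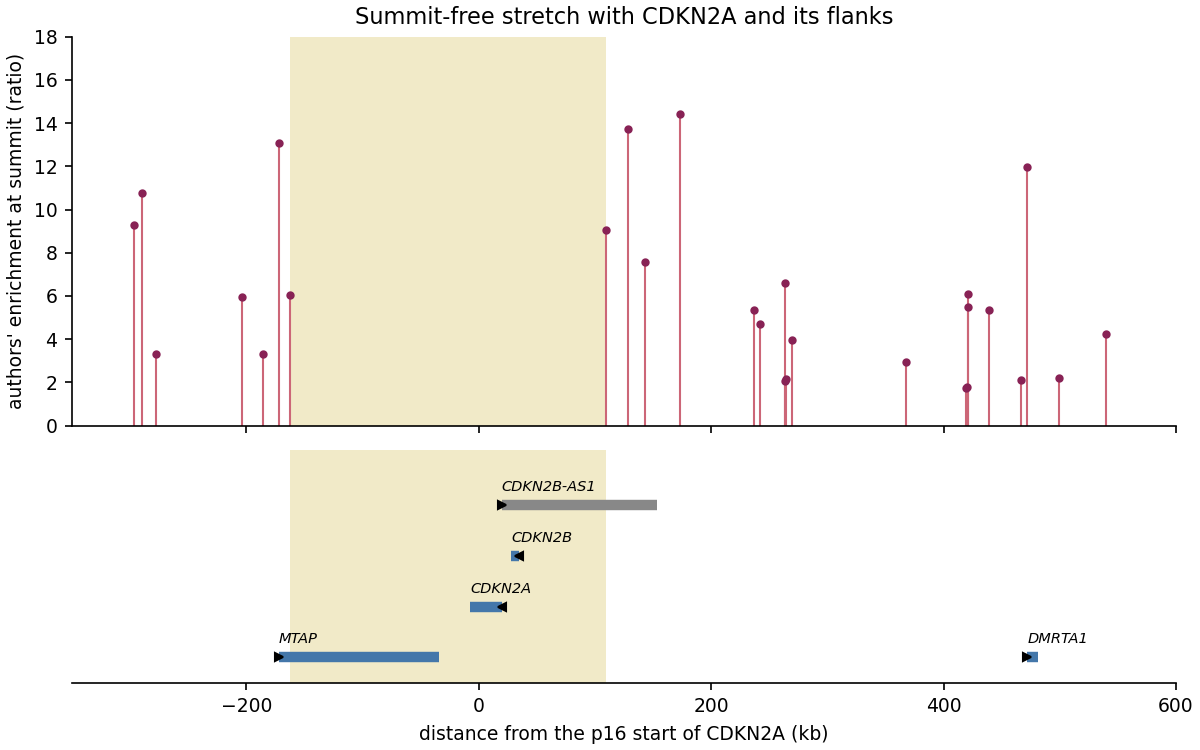
Authors' enrichment at each summit (upper axis, ratio) and the listed genes (lower panel, arrowheads at starts) against the distance from the p16INK4a start in kb; the shaded band is the summit-free stretch. The band runs from 162 kb on one side to 110 kb on the other, with the MTAP start just outside it and the far end of CDKN2B-AS1 beyond it.

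On the lower side the stretch began inside MTAP. The MTAP start was open: the summit at 21802671, 35 bp into the gene, had an enrichment of 13.1 (the authors' ratio of signal to the background their peak caller used). The interval around it ran from 21802104 to 21803277, with a pileup of 593 fragments. Pileup, the number of overlapping fragments at the summit, and the background were recovered from the deposited enrichment and p-value. A further summit at 21812632, with enrichment 6.02 and pileup 143, was the last before the stretch. It lay inside MTAP and within 1000 bp of TUBB8P1, a tubulin pseudogene. The remaining 128 kb of MTAP had none. Among 1173 autosomal coding genes of 100 to 200 kb with a summit at a start, the median longest run without a summit inside the gene was 59.7 kb, and 68 genes (5.80%) had a run at least as long as that of MTAP. Genes of the set shorter than 128 kb could not have such a run. The 5.80% therefore understates the share among genes long enough to have one. The genes of the set held a median of 5 summits, and MTAP held 2.

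On the upper side the stretch ended inside CDKN2B-AS1. The 3 summits of that gene all lay beyond the stretch. The one at 22084850 had 9.05 in enrichment and 192 in pileup. At 22103430 the enrichment was 13.7 and the pileup 327, and at 22117643 the values were 7.55 and 160. A site just past the end of the noncoding RNA, at 22148305, was stronger still, at 14.4 in enrichment and 337 in pileup, and lay 139000 bp from the nearest start site, that of CDKN2B. The 4 sites in a row between 22084850 and 22148305 thus all had an enrichment above 7, while the 5′ part of the same transcript had no summit.

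The flanks were populated with summits on both sides of the stretch. The 500 kb below it held 29 summits and the 500 kb above it 20, and their median enrichments were 4.08 and 5.02. Median pileups were 116 and 106 fragments. Over the whole 5 Mb, 59 summits lay below the stretch (32.5 per Mb) and 34 above it (11.7 per Mb). Their median enrichments were 5.07 and 5.11. The background was at its lowest, genome-wide value of 20.3 fragments for 47.5% of summits below and 70.6% above.

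**Figure D2:**
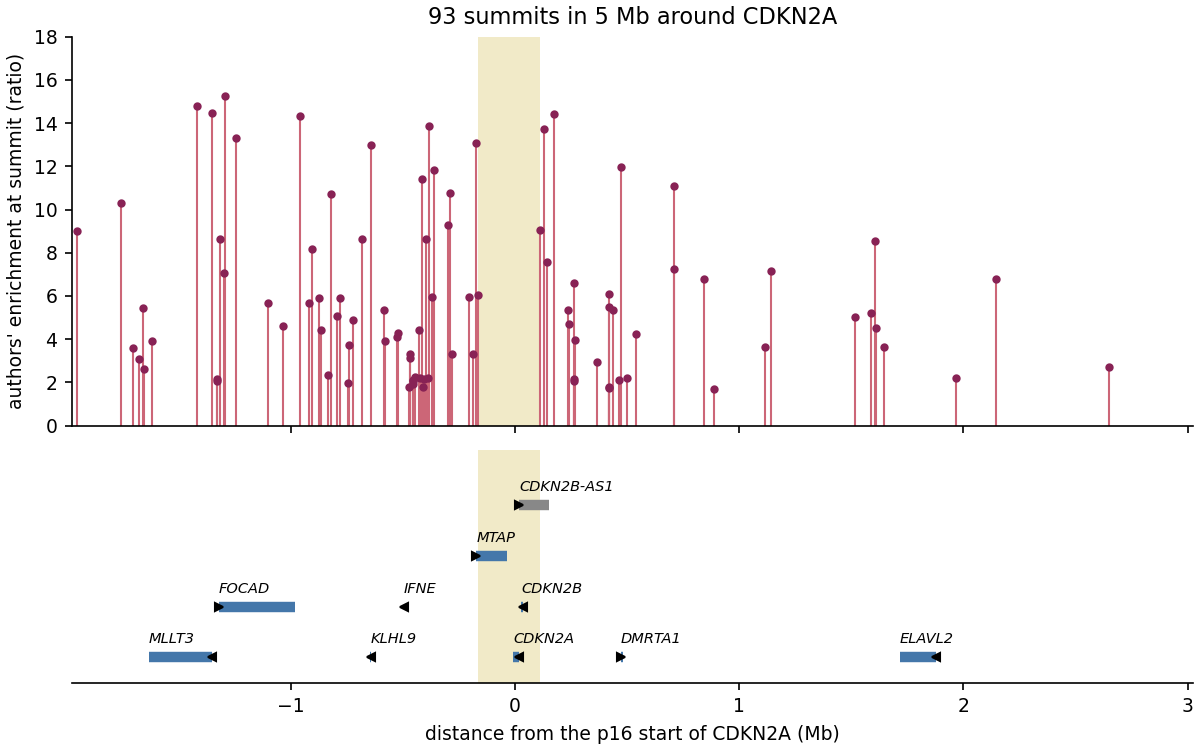
Authors' enrichment at the 93 summits of the 5 Mb (upper axis, ratio) and the 10 listed genes (lower panel) against the distance from the p16INK4a start of CDKN2A in Mb; the shaded band is the summit-free stretch with CDKN2A. Summits are denser below the band (32.5 per Mb) than above it (11.7 per Mb), and long empty runs also lie around ELAVL2.

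Open starts were found on both sides. Of the 10 listed genes, 4 had an open end, meaning a summit no more than 1000 bp from where the gene starts or stops: MLLT3, KLHL9, MTAP and DMRTA1. Over all 19974 coding genes of the autosomes and X this share was 65.8%, and over 18177 lncRNA genes 31.5%. FOCAD joined them when annotated start sites took the place of gene ends, a setting chosen after the values were seen, because the start site given for it lies inside the outermost gene model. Counted per gene in the same way, 10708 of the 15812 coding genes in the promoter table had a summit at a start. Counted per start, the share over 22132 coding start sites was 62.7%. With summits anywhere in the gene, 6 of the 10 had at least 1, as did 82.7% of coding genes and 50.5% of lncRNA genes. CDKN2A, CDKN2B, IFNE and ELAVL2 had none under any of the 7 ways of counting.

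At the telomere side of the window, MLLT3 (20341669 to 20622499, minus strand) had 3 summits. The one at its start, 20622548, reached 14.4 in enrichment and 1079 in pileup. Inside the gene, 20558870 had 14.8 and 532, and 20358400 had 3.89 and 82. FOCAD (20655625 to 20995950, plus strand) had 6 summits, more than any other listed gene. Its start at 20684259 coincided with the strongest summit of the 5 Mb, at 20684242, with an enrichment of 15.3, a pileup of 1527 and a background of 99.1 fragments. FOCAD-AS1, read from the other strand, overlaps that site. The other 5 FOCAD summits ranged from 4.60 to 13.3 in enrichment and from 97 to 405 in pileup.

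KLHL9 (21329665 to 21335404, minus strand) sits among the interferon genes and had 1 summit, at its start, with 13.0 in enrichment and 459 in pileup; the noncoding LOC107987053 covers the same position. DMRTA1 (22446824 to 22455740, plus strand), the first coding gene above the stretch, had 1 summit, 26 bp from its start, with 12.0 in enrichment and 626 in pileup. Among 456 coding genes of chromosome 9 with a summit at a start, the median enrichment there was 12.5 and the median pileup 952. In enrichment, FOCAD exceeded 76.1% of them, MLLT3 69.1%, MTAP 58.3%, KLHL9 57.2% and DMRTA1 46.5%. In pileup, KLHL9 exceeded 26.8%, MTAP 34.4%, DMRTA1 36.0%, MLLT3 57.0% and FOCAD 72.8%. All 5 thus ranked lower by pileup than by enrichment.

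The interferon genes had few open ends. Of 16 type I interferon genes, from IFNB1 to IFNE, 1 had an open end, beside 65.8% of all coding genes. It was IFNW1, whose summit had 2.35 in enrichment and 49 in pileup. IFNB1, the early-response beta interferon, had its nearest summit 7620 bp from the start, and IFNE, the epithelial interferon of the reproductive tract, 21750 bp. Of the 13 interferon genes with a promoter in the table, IFNE among them, none had more than 2 CpG in the 250 bases before the start. Start sites with 0 to 2 CpG had a summit in 14.6% of cases genome-wide. The segment from IFNB1 to IFNA1 was not empty: it held 13 summits over 364 kb, and 5.07 was their median enrichment, the strongest being that of KLHL9.

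The densest of the segments counted ran from MIR31HG to the MTAP start, with IFNE inside it. It held 23 summits in 348 kb (66.0 per Mb), with a median enrichment of 3.33, against 5.07 over the 5 Mb. The segment opens with MIR31HG (21454268 to 21559798), the noncoding host of MIR31. The start of MIR31HG, at its upper end, had a summit at 21559712 (enrichment 11.4, pileup 839). MIR31 itself had no summit within 1000 bp. Its mature 5p product is shown because it is the microRNA of the 5 Mb that lies closest to the stretch, with the seed (bases 2 to 8) in capitals.
hsa-miR-31-5p: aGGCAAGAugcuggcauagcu
Past MIR31HG, a site in no gene at 21591848 had 13.9 in enrichment and 889 in pileup, the next highest pileup of the 5 Mb after the starts of FOCAD and MLLT3. Inside MIR31HG, 3 summits between 21520332 and 21521667 had low enrichments of 1.92 to 2.09 over raised backgrounds of 59.0 to 60.8 fragments, with pileups of 114 to 127.

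Long empty stretches were not limited to CDKN2A. The 5 Mb held 12 stretches of at least 100 kb without a summit, and 7 of them overlapped a coding gene. The longest, 1053 kb from 24624829 to 25677693, ran past the window and held no coding gene whole. The next, 506 kb from 24118357 to 24624829, held IZUMO3, a sperm membrane protein gene. A stretch of 375 kb from 23117793 to 23492350 overlapped a noncoding gene only. ELAVL2 (23690104 to 23850601) lay whole in a stretch of 320 kb from 23621368 to 23941294, bounded by weak summits, the stronger with an enrichment of 3.66. It has 6 start sites in the promoter table with 9 to 33 CpG, none of them nearer than 115 kb to a summit. The stretch with CDKN2A was thus the third longest of the 5 Mb to hold a whole coding gene. From the end of DMRTA1 to 25000000, density was 6.29 summits per Mb.

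Over the autosomes and X, 5305 stretches between neighbouring summits held at least 1 coding gene whole, with a median length of 34.5 kb. A gene counted as whole even where a bounding summit lay within 1000 bp of its end, so genes with open ends were not left out. Called intervals were not taken out of these stretches either, and between interval ends 2685 stretches held a coding gene whole. The stretch with CDKN2A stood at rank 265 of the 5305 by length, in the longest 5.00%. The stretch with IZUMO3 stood at rank 115 and that with ELAVL2 at rank 205. On chromosome 9, 8 of 204 were at least as long as that of CDKN2A. The 10 longest ran from 1850 to 3100 kb, and ranks 1, 2, 3, 5 and 8 were on X. The 10 included those with NXPH1, NOVA1 and DCC, genes of the nervous system. They also included 1 with 45 coding genes on chromosome 11, mostly olfactory receptors.

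**Figure D3:**
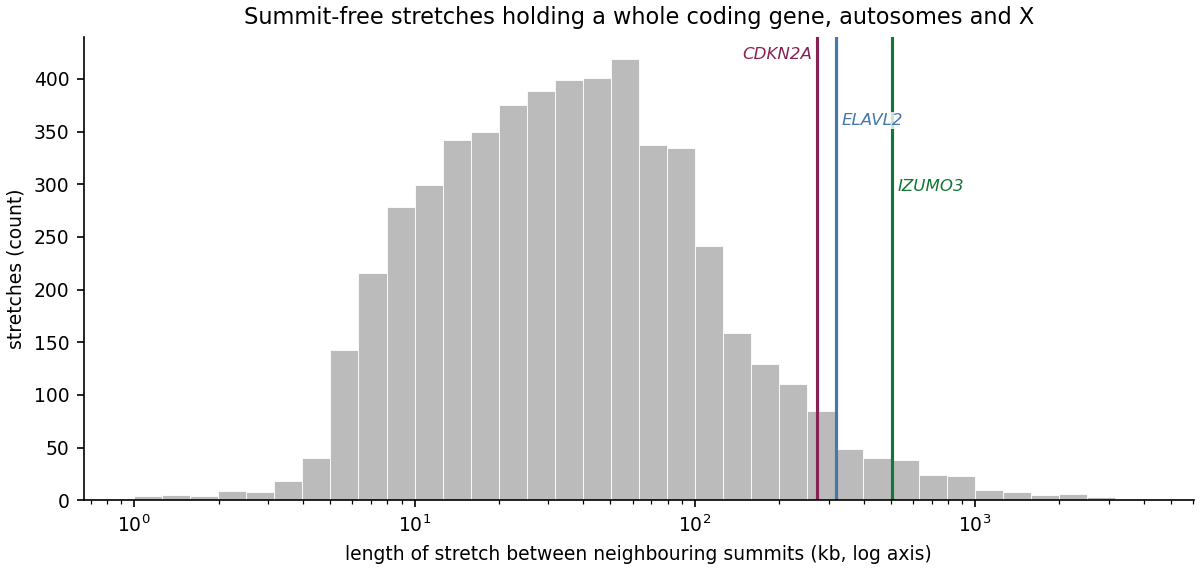
Number of summit-free stretches with a whole coding gene (vertical axis) by length in kb (horizontal log axis), over the autosomes and X. Coloured lines mark the stretches with CDKN2A (272 kb), ELAVL2 (320 kb) and IZUMO3 (506 kb), all in the right tail of a distribution with a median of 34.5 kb.

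The stretch was then described by the CpG-dense starts in it. With at least 15 CpG in 250 bases counted as CpG-rich, a limit chosen after the values were seen, 84.3% of 12098 such coding start sites had a summit within 1000 bp, against 36.7% of 10034 others. The 2 starts of CDKN2A, the start of CDKN2B and that of CDKN2B-AS1 (31 CpG) were all CpG-rich and all without a summit. Among coding starts with a CpG number within 1 of theirs, 84.2% had a summit for the p16INK4a start, 83.5% for the ARF start and 82.2% for CDKN2B. The remaining share was large in number: 1897 CpG-rich coding starts (15.7%) had no summit. ELAVL2, with up to 33 CpG, belonged to them too.

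**Figure D4:**
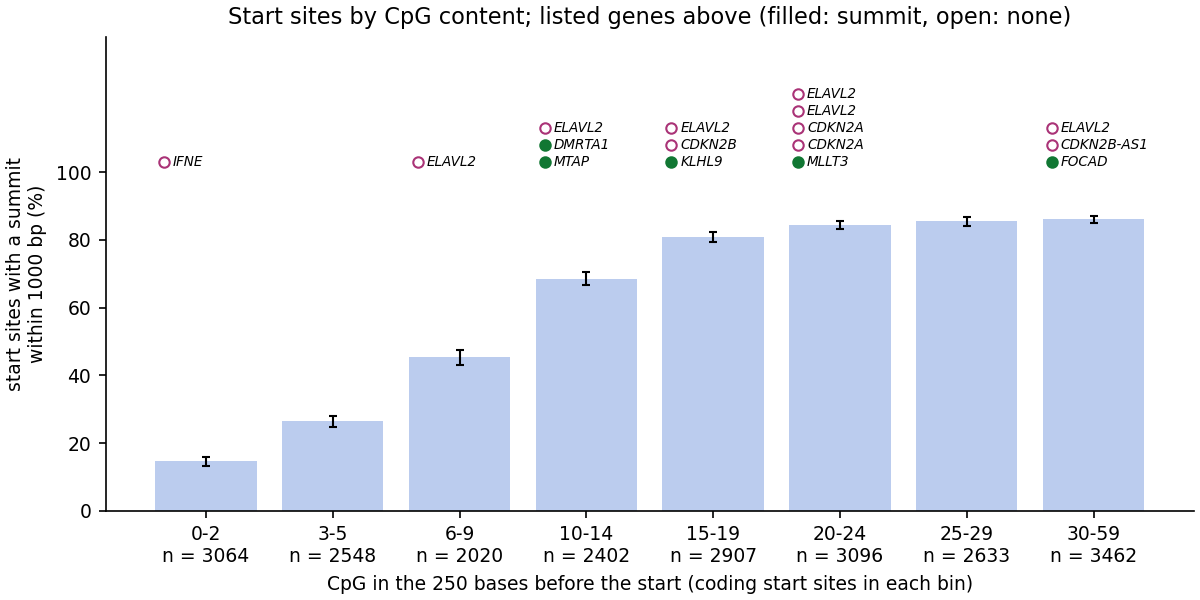
Share of coding start sites with a summit within 1000 bp (bars, %, with 95% Wilson intervals for counting error) by the number of CpG in the 250 bases before the start. Circles above the bars place each start of the listed genes by its CpG number, filled where a summit was found; the share rises from 14.6% to 86.1%, and the starts of CDKN2A, CDKN2B and CDKN2B-AS1 are open circles over the high bars.

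Stretches at least 272 kb long with CpG-rich starts of at least 2 coding genes numbered 25 with that of CDKN2A. Those of any length with as many numbered 426. A start was counted anywhere between the bounding summits, even within 1000 bp of one, like that of KLHL9, 57 bp from such a summit. Both counts can thus include open starts, whereas no CpG-rich start in the stretch with CDKN2A had a summit. The other stretches of at least 272 kb, named here after their values were seen, included that with NDN and MAGEL2, imprinted genes on chromosome 15. Those with ZIC1 and ZIC4 and with NEUROD1, lineage factors of the nervous system, were among them too. Several held zinc finger genes of chromosome 19, and several lay on X. Another, of 859 kb on chromosome 1, held WDR3, a ribosome assembly factor used by dividing cells. How far the WDR3 start lies from the lower bounding summit, 117929654, is not given here. That start is therefore not known to lack a summit.

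Elsewhere in the genome, the partners of CDKN2A and MTAP were looked up. In the p16-RB pathway, 16 of 18 genes (88.9%) had an open end, beside 65.8% of all coding genes, with a median of the strongest enrichment of 10.4. Those with a start in the promoter table all had a CpG-rich start except RB1, and 84.3% of CpG-rich coding starts had a summit. CDK4, the kinase p16INK4a binds, had 14.6 and a pileup of 3930. CDK6 had 3.84 and 350, and CCND1, their cyclin partner, 5.44 and 1021. RB1 had 15.3 and E2F1 13.3. The 2 without a summit were CCND2 and CDKN1C. The sister inhibitors CDKN2C (p18INK4c), with 18.3, and CDKN2D (p19INK4d), with 10.4, both had one, in contrast to CDKN2A and CDKN2B.

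All 5 genes reported from the ARF-MDM2 list had an open end, and 9.62 was their median enrichment. MDM2, the ubiquitin ligase that ARF inhibits, had 9.62 and a pileup of 1333. Its relative MDM4 had the highest enrichment of the 5, 15.8, with a pileup of 1159. CDKN1A, which encodes the kinase inhibitor p21, had the lowest of both, 1.67 and 133. BAX and BBC3, which promote cell death, had enrichments of 14.7 and 2.50. All 13 genes of methionine salvage and MTAP-linked methylation, MTAP itself among them, had an open end too (background 65.8%). Their median enrichment was 13.3, with a range of 9.91 to 16.9. Most of these genes had a CpG-rich start, and 84.3% of such coding starts had a summit. They included PRMT5 (14.3), the arginine methyltransferase inhibited by the substrate of MTAP, its cofactor WDR77 (16.9) and MAT2A (11.5), which makes S-adenosylmethionine. A summit near an end may belong to a neighbouring gene that shares it.

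**Figure D5:**
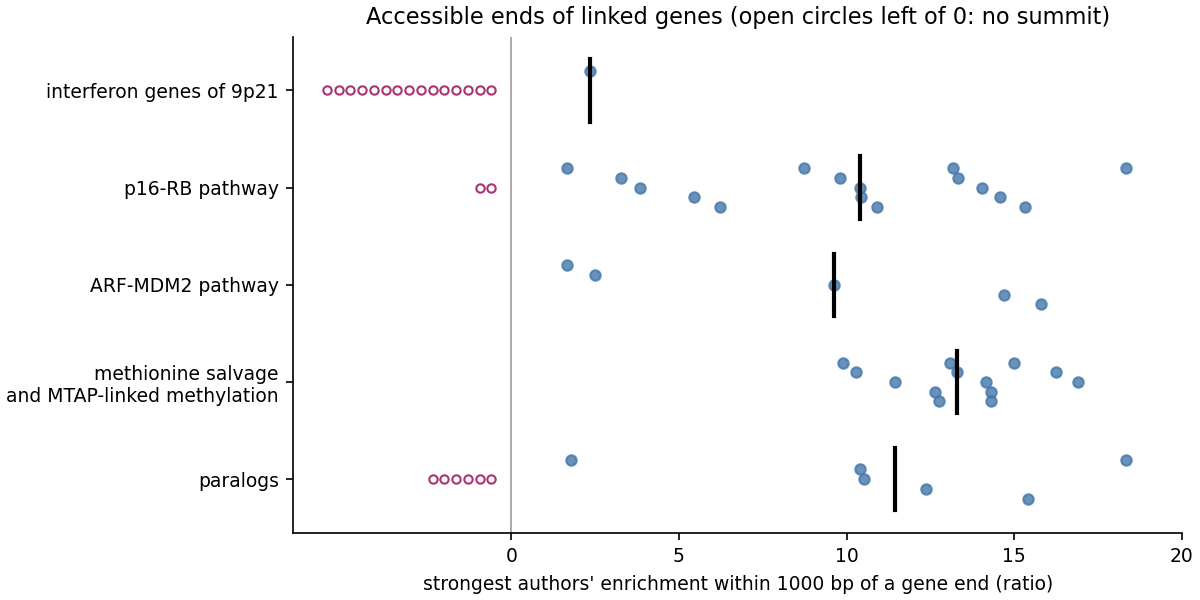
Strongest authors' enrichment (ratio, horizontal axis) within 1000 bp of an end for each gene of 5 lists (rows); filled points are genes with a summit, black bars list medians over those genes, and open circles left of 0 genes without one. Points spread from 1.67 to 18.3, with 15 of 16 interferon genes among the open circles and none of the methionine salvage genes.

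Paralogs of the listed genes were also looked up. Of 12, 6 had an open end (50%), beside 65.8% of all coding genes. MLLT1 (15.4), PNP (12.4), a purine phosphorylase related to MTAP, and ELAVL1 (10.5), the broadly used member of its family, did. The neuronal ELAVL3 and ELAVL4, like ELAVL2, did not. DMRTA2 had 1.79 with a pileup of 42, far below DMRTA1, and DMRT1, DMRT2 and DMRT3, nearer the tip of the same chromosome arm, had none. KLHL13, the X-linked relative of KLHL9, had none, and its nearest summit was 229180 bp from the start.

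Counting all 78 genes of the table in the 5 Mb, 10 (12.8%) had an open end, among them 5 of 27 coding genes (18.5%) and 2 of 20 lncRNA genes (10%). The shares over all such genes were 65.8% and 31.5%, and 68% of the 778 coding genes of chromosome 9 had an open end. The 27 coding genes of the 5 Mb included all 16 interferon genes, of which 1 had an open end. Of the 93 summits, 6 (6.45%) lay within 1000 bp of a start site and 50 (53.8%) outside every gene, with a median distance of 32.7 kb to the nearest start. The 5 Mb had fewer summits than the median window of this size on autosomes, which held 157, and 22.8% of the 565 windows had fewer. The median enrichment of 5.07 (95% interval of the median over the 93 summits, 4.08 to 5.92) compared with 3.64 over the rest of chromosome 9 and 4.24 over the autosomes. In intervals of at most 10 kb, these medians were 3.71 and 3.89. None of the 93 summits lay in an interval over 10 kb, whereas 3097 of the other 7770 on the chromosome did.

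The cell type was looked up in marker genes, where 65.8% of all coding genes had an open end. Of 14 mesenchymal markers 9 did (64.3%), among them FN1 (15.1), VIM (6.64) and CD44 (9.96), whereas COL1A1, COL1A2, COL3A1, THY1 and PRRX1 did not. Of 8 epithelial markers 4 did (50%): KRT8 had an enrichment of 12.7, and EPCAM, KRT18 and CLDN7 had 1.75 to 2.11. Of 6 blood markers 3 did (50%), namely CD3E (14.5), CD68 (9.08) and SPI1 (8.44), and of 4 endothelial markers none did. Median enrichments over the open markers were 8.74 for the mesenchymal, 2.04 for the epithelial and 9.08 for the blood list. The mesenchymal share did not exceed that of all coding genes, so these counts do not tell the cell type.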

How the data were processed

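The data were 1 deposited peak list of 188019 summits in 91278 intervals, without a header. The submitters' processing notes name fastp 0.20.0, Bowtie2 2.4.3, SAMtools, deepTools 3.5.0, MACS2 2.2.7.1 and the build hg38, with no role or order. Pooling, read filters and the treatment of duplicates are not given in the sources used here. The deposited list holds a score, an enrichment (a ratio, or fold over background), and a −log10 p-value and −log10 q-value per summit, all the authors' values. Sequencing depth per library is not known from it.

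The fragment pileup and background were solved from enrichment, taken as (pileup + 1)/(background + 1), and a Poisson tail p. This gave whole pileups, within 0.05, at 187939 summits. On simulated data 100% of 3000 pileups were recovered. Genes came from the RefSeq table and start sites from the RefSeq promoter table (GRCh38.p14), which held 82.1% of coding genes outside chromosome 8. Chromosome 8 promoters, exon boundaries and the rest of the genome sequence were not used here. A summit within 1000 bp of an end counted as near a gene. Named genes were all listed genes, genes of the 5 Mb, fixed lists and genes of the 10 longest stretches; those of stretches like that of CDKN2A were chosen after their values were seen. One item of a fixed list is not reported here. Members and lists were chosen with earlier results of these data known. Work used Python 3.11.15, pandas 2.3.3, numpy 2.4.6, scipy 1.17.1 and matplotlib 3.10.9.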

Additional observations from a re-analysis of the deposited data

How the results depend on the processing

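No paired analysis was possible because the list carries no value per library, and leaving out single replicates could not be run for the same reason. Of 29 alternatives, 19 changed no count by more than 1.5 times and no value beyond its counting interval. The 4 listed genes with a summit near an end became 6 with summits anywhere in the gene and 5 with start sites. The longest stretch of the 5 Mb was 1053 kb, 1559 kb with a −log10 q of at least 10 and 1052 kb between interval ends. The best rank of a stretch of the 5 Mb with a whole coding gene was 115 of 5305, 25 of 6305 with the stricter q, 112 of 2685 between interval ends and 67 of 21629 with any gene of the table. The stretch with CDKN2A was 272.2 kb, also with the stricter q and with intervals of at most 10 kb, and 271.3 kb between interval ends. Its rank of 265 of 5305 became 359 of 6305 with the stricter q and 986 of 21629 with any gene. Between interval ends it was 253 of 2685, a larger share of a smaller set. With at least 20 CpG as the limit, 85.4% of coding starts had a summit, against 84.3%. The alternatives for the stretch with CDKN2A, the start sites and the limit of 20 CpG were chosen after the data were seen. The depth behind the list limits what can be called: no summit had a pileup below 35 fragments.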
